A study of Mus musculus with 7 samples.

Results

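The Ly6 family including Sca-1 was followed as 8 genes, Ly6a, Ly6c1, Ly6c2, Ly6d, Ly6e, Ly6g, Ly6i and Ly6k, chosen by symbol with the comparison of the treatments in view, so that the levels and fold changes below describe these genes and support no choice of them. The deposited table holds 24421 genes and a row for 7 of the 8 members; Ly6g was not analysed here. The tumours came from 7 mice. In 4 of them anti-Lair1 was given with anti-PD-1, and in the other 3 anti-KLH was given with anti-PD-1. LAIR1 is a receptor by which collagen inhibits leukocytes, and the KLH antibody, raised to a limpet protein that mice lack, served as its control. All 7 mice thus received PD-1 blockade, and all libraries are labelled week 4, with no statement of the event from which weeks are counted. The series text describes a syngeneic model, in which 344SQ mouse lung cancer cells were placed under the skin of 129/Sv mice aged 6 to 8 weeks and the doses were 10 mg/kg of anti-LAIR with 8 mg/kg of anti-PD-1, as well as an autochthonous model, in which adenovirus-cre given into the trachea starts lung tumours. The labels do not say which of these models, or which strain, sex or age, belongs to a given library. The names of the treated mice begin with WTSV and those of the control mice with LOHM or KWM, so that whatever these prefixes stand for cannot be told apart from the treatment.

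Ly6 proteins are small, cysteine-rich proteins, most of them held on the outer face of the cell membrane by a lipid anchor. Ly6a encodes Sca-1, the classical marker of mouse haematopoietic stem cells, which is also found on endothelial cells, on subsets of fibroblasts and on activated lymphocytes, and which interferons induce. Ly6c1 and Ly6c2 encode the Ly6C antigens used to sort mouse inflammatory monocytes and carried also by endothelial cells and memory T cells, and Ly6g encodes the antigen used to sort mouse neutrophils. Ly6e is a widely expressed, interferon-inducible member that limits the entry of coronaviruses, Ly6d marks B lineage progenitors and stratified epithelium, and Ly6k is known from male germ cells. In bulk tumour RNA, fewer cells of a type and less RNA per cell cannot be told apart.

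All 8 members lie on chromosome 15 of GRCm38 (mm10), Ly6e and Ly6g on the plus strand and the others on the minus strand. Their coding sequences fall into a close subgroup of Ly6a, Ly6i, Ly6c1 and Ly6c2, and into Ly6e, Ly6d and Ly6k, which share 53.4% or less of aligned positions with any other member. Ly6g had 63.5 to 67.7% identity to the close subgroup, but its annotated coding sequence starts with GCT, not ATG, and holds only 333 bases. Those of the close subgroup hold 393 to 402. Positions facing a gap, 69 to 78 in its alignments with the subgroup, count as not identical. With Ly6a, 272 positions were identical, 61 differed and 69 faced a gap. These values therefore do not settle how close Ly6g is to the subgroup. The first 300 coding bases of the close subgroup are shown because their likeness bears on which counts belong to 1 gene. They come from GENCODE transcripts of GRCm38, are joined across introns, and lie on the minus strand within chr15:74995367-74997604 for Ly6a, chr15:74980019-74983059 for Ly6i, chr15:75045498-75048511 for Ly6c1 and chr15:75108639-75111667 for Ly6c2. Capitals mark the bases at which Ly6a and Ly6i differ from each other, 47 of the 300 shown and 55 of 402 in all:
Ly6a: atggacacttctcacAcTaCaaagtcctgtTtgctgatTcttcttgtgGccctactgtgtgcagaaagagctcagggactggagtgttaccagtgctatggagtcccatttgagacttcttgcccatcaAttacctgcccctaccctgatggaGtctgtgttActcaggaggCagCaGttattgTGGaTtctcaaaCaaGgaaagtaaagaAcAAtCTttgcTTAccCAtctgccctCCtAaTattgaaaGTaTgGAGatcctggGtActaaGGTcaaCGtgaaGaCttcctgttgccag
Ly6i: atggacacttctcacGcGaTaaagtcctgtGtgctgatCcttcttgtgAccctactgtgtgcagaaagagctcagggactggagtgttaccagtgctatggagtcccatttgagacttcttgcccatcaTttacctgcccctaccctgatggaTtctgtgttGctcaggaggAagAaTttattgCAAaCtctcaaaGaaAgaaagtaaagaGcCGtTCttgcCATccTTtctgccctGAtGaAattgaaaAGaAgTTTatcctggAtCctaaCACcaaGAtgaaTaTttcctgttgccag
In the second pair capitals mark the bases at which Ly6c1 and Ly6c2 differ from each other, 7 of the 300 shown and 9 of 393 in all:
Ly6c1: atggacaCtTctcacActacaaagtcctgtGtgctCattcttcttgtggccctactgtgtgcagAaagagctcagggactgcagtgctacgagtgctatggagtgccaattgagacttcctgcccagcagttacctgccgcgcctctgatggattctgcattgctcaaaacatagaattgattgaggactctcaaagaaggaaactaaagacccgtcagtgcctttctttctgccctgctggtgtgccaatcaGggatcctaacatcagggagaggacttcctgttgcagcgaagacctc
Ly6c2: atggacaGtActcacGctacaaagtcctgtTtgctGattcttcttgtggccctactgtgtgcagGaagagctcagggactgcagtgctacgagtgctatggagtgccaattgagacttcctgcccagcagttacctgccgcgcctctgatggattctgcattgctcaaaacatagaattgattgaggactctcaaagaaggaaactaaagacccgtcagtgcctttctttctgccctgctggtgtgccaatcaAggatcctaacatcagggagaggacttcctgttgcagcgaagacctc
The longest stretch without a difference between Ly6c1 and Ly6c2 is 188 bases, longer than the 100 bases of a read. Of all distinct windows of 100 bases in the annotated transcripts, 10.1% of those of Ly6c1 (178 of 1756) and 5.81% of those of Ly6c2 (159 of 2737) also occur in another gene. For Ly6c1 these genes are Ly6c2 and Ly6a. Ly6a shares 19 of its 1311 windows (1.45%), all with Ly6c1, and Ly6d, Ly6e, Ly6i and Ly6k share 0. The sources used here do not say how reads with several matches were counted, so counts of Ly6c1 and Ly6c2 are less certain than those of the other members. Exons of Ly6k overlap those of the antisense gene Gm17189 over 395 bases, and without a stated strand setting its counts may include reads of that gene.

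**Figure D1:**
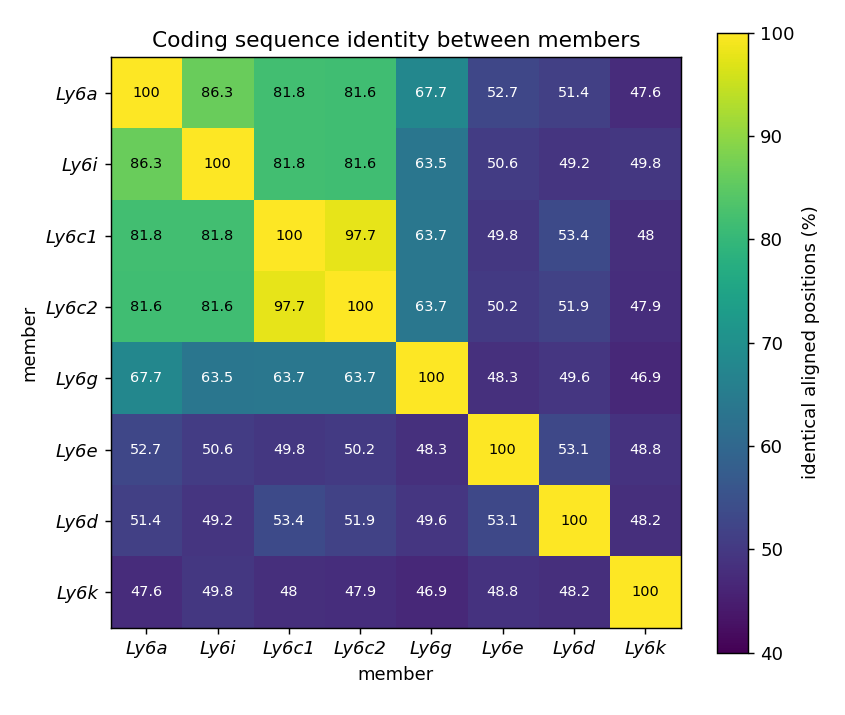
Percent of identical positions in global alignments of the coding sequences of the 8 members, each row and column being 1 member and colour running from 40 to 100%. Ly6c1 and Ly6c2 form the closest pair at 97.7%, Ly6a is nearest to Ly6i at 86.3%, and Ly6e, Ly6d and Ly6k stay at 53.4% or below with every other member. Positions facing a gap count as not identical. The annotated coding sequence of Ly6g is short and does not start with ATG, which lowers its values.

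Total counts ran from 11480651 to 15347403 in the anti-Lair1 libraries and from 9879762 to 26255727 in the anti-KLH libraries, and 3 counts were worth 0.119 to 0.305 CPM (counts per 1000000 of a library total scaled by the trimmed mean of M values, TMM). The tissue label was checked with genes of simple epithelium, of which all 12 had a row, with a summed level of 4988 to 6009 CPM in anti-Lair1 tumours and 4937 to 6028 CPM in anti-KLH tumours.

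Ly6e and Ly6a together made up most of the family's RNA in every tumour. The summed level of the 7 members averaged 497 ± 53.9 CPM with anti-Lair1 (SD, n = 4) and 372 ± 58.7 CPM with anti-KLH (SD, n = 3). Ly6e took 82.5 to 87.8% of the members' counts in anti-Lair1 tumours and 89.5 to 94.4% in anti-KLH tumours, and Ly6a took 9.34 to 13.3% and 3.73 to 8.91% in the same groups. Neither share overlapped between the groups: the smaller share of Ly6e with anti-Lair1 went with a larger one of Ly6a. Per kilobase of annotated exon the order of mean levels in anti-Lair1 tumours was Ly6e with 112 ± 11.5 CPM, Ly6a with 48.7 ± 10.2 CPM, Ly6c1 with 6.59 ± 2.10 CPM, Ly6k with 3.11 ± 0.381 CPM, Ly6d with 1.995 ± 1.20 CPM, Ly6c2 with 0.374 ± 0.289 CPM and Ly6i with 0.207 ± 0.247 CPM (SD, n = 4). In anti-KLH tumours these levels per kilobase were 90.3 ± 15.3 CPM for Ly6e, 18.9 ± 8.88 for Ly6a, 2.51 ± 0.513 for Ly6c1, 2.04 ± 0.411 for Ly6k, 2.09 ± 0.479 for Ly6d, 0.0316 ± 0.0293 for Ly6c2 and 0.108 ± 0.056 for Ly6i (SD, n = 3). Ly6k and Ly6d, and Ly6c2 and Ly6i, were neighbours whose intervals of mean ± SD overlapped in both groups, as did those of Ly6c1 and Ly6d in anti-KLH tumours, and Ly6e and Ly6a were clear of each other and of the rest. The exon length of Ly6c2 includes a retained intron. On the length of its coding transcript of 822 bases Ly6c2 stood at 1.25 ± 0.964 CPM per kilobase with anti-Lair1 and 0.106 ± 0.0976 with anti-KLH. Other members also moved when the length of 1 transcript was used. Ly6e then stood at 185 ± 19, Ly6a at 71.7 ± 15 and Ly6c1 at 13.1 ± 4.18 CPM per kilobase with anti-Lair1. In anti-KLH tumours Ly6c1 (4.99 ± 1.02) and Ly6d (2.09 ± 0.479) no longer overlapped on these lengths.

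**Figure D2:**
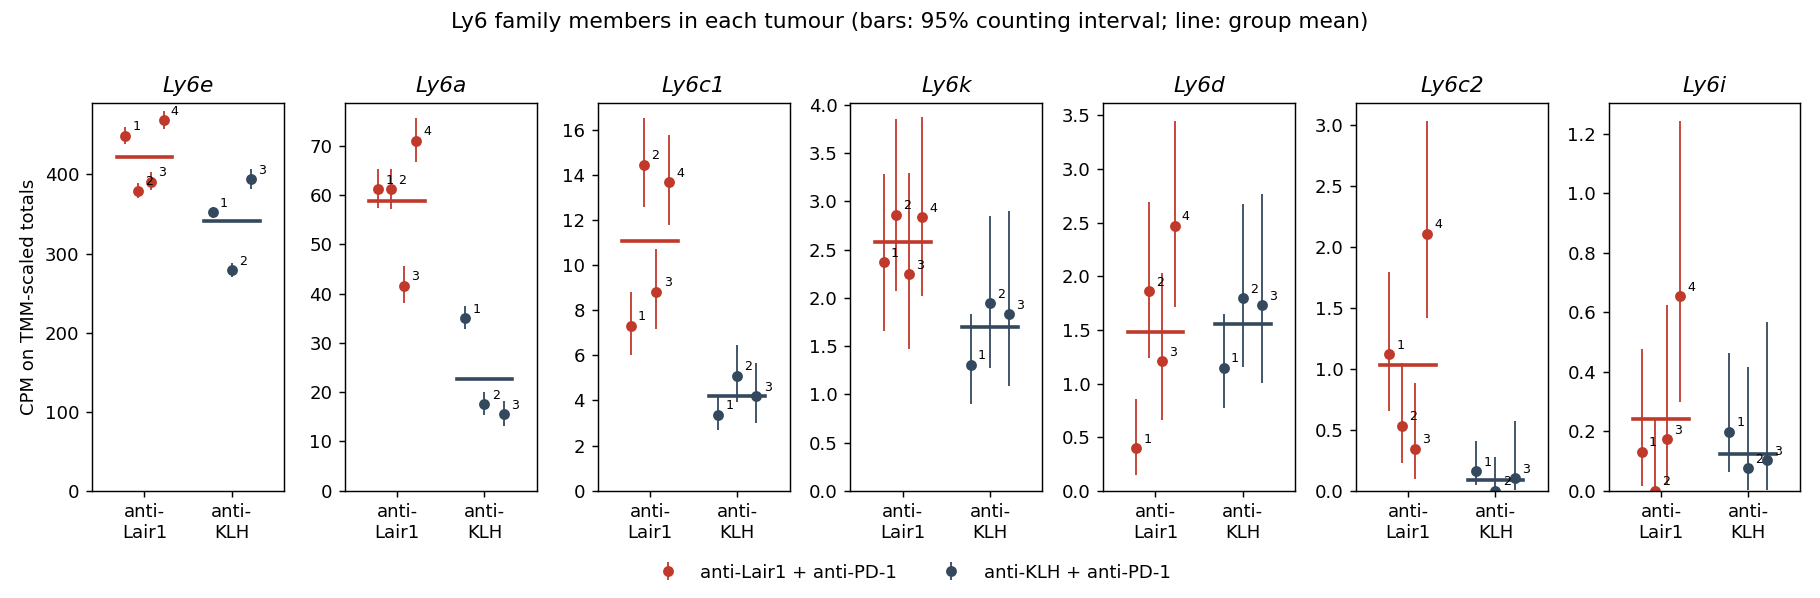
CPM of the 7 measured members in each tumour, 1 panel per gene with its own linear axis, anti-Lair1 + anti-PD-1 in red and anti-KLH + anti-PD-1 in dark blue, with replicate numbers beside the points, 95% Poisson intervals of the count as bars and group means as lines. All 4 anti-Lair1 tumours lie above all 3 anti-KLH tumours for Ly6a, Ly6c1, Ly6c2 and Ly6k, while Ly6e, Ly6d and Ly6i overlap. For Ly6c2 and Ly6k the counting intervals of some treated and control tumours meet. Of all tested genes, which do not include Ly6c2, 3.06% were higher without overlap.

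The comparison of the groups asks what LAIR1 blockade added to PD-1 blockade. Of the 7 members, 5 passed the filter on low counts and were tested, and 4 of these 5 had a positive fold change (49.1% of the 13545 genes tested did). The median log2 fold change was 0.62 over the 5 tested members and 0.00 over all genes tested (-0.002845 before rounding). No member was called: edgeR's quasi-likelihood test gave 0 of the 5 members and 0% of all tested genes at an adjusted p under 0.05. At an unadjusted p under 0.05 stood 3 members, Ly6a, Ly6c1 and Ly6e, beside 5.15% of all genes (697) in either direction and 3.51% higher with anti-Lair1. DESeq2 called 2 members, Ly6a and Ly6c1, beside 0.39% of the 13846 genes to which it gave an adjusted p (54 genes), and limma-voom called 0 members beside 0% of all genes. The groups did not overlap for 3 tested members, Ly6a, Ly6c1 and Ly6k, all higher with anti-Lair1, beside 3.06% of all genes that were higher without overlap and 2.51% that were lower. Because the members were picked with this comparison known, these counts are not evidence on the family, and no p-value is given for single members.

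Ly6a, the gene of Sca-1 (chromosome 15, 74994877 to 74998031), was higher in each anti-Lair1 tumour than in any anti-KLH tumour. Its levels were 61.2, 61.1, 41.6 and 71.0 CPM in anti-Lair1 replicates 1, 2, 3 and 4, and 35.0, 17.6 and 15.6 CPM in anti-KLH replicates 1, 2 and 3. Anti-KLH replicate 1 stood well above the other controls and just below anti-Lair1 replicate 3, the lowest of the treated tumours. The groups averaged 58.7 ± 12.3 CPM with anti-Lair1 (SD, n = 4) and 22.7 ± 10.7 CPM with anti-KLH (SD, n = 3). The fitted log2 fold change was 1.35 ± 0.31 (SE). It was 1.82 without anti-KLH replicate 1 and lay between 1.145 and 1.82 in the 7 fits that each left out a library. With 482 or more counts in treated tumours and 153 or more in control tumours, the 95% counting intervals of anti-Lair1 replicate 3 (38.0 to 45.5 CPM) and anti-KLH replicate 1 (32.8 to 37.4 CPM) did not meet either. Such intervals cover counting error only.

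Ly6c1 (75044018 to 75048830) was the other of the 5 tested members with a log2 fold change above 1, a size that 2.1% of all tested genes reached or passed in the same direction. Levels were 7.31, 14.4, 8.81 and 13.7 CPM in anti-Lair1 replicates 1, 2, 3 and 4, and 3.37, 5.09 and 4.17 CPM in anti-KLH replicates 1, 2 and 3. The treated tumours split into a lower pair, replicates 1 and 3, and a higher pair, replicates 2 and 4, and the lower pair was still above every control. Means were 11.1 ± 3.53 CPM with anti-Lair1 (SD, n = 4) and 4.21 ± 0.861 CPM with anti-KLH (SD, n = 3), with a log2 fold change of 1.40 ± 0.29 (SE). When Ly6c1 and Ly6c2 were summed as 1 gene, since reads can fall to either, the log2 fold change was 1.502 ± 0.28 (SE).

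Ly6c2 (75108158 to 75111970) was far rarer, did not pass the filter on low counts and was not tested. Its counts were 17, 8, 4 and 29 in anti-Lair1 replicates 1, 2, 3 and 4, or 1.12, 0.532, 0.345 and 2.11 CPM. In anti-KLH replicates 1, 2 and 3 its counts were 4, 0 and 1, or 0.158, 0 and 0.102 CPM, at or near the level of 3 counts. Treated tumours held 58 counts in all and control tumours 5. Anti-Lair1 replicate 3 and anti-KLH replicate 1 had 4 counts each, so only their library totals set them apart. Their 95% counting intervals (0.094 to 0.88 and 0.043 to 0.41 CPM) overlapped. The share of Ly6c2 in the summed counts of Ly6c1 and Ly6c2 was not even among treated tumours: 13.3% (95% exact Clopper-Pearson interval 7.93 to 20.4%) in replicate 1 and 13.4% (9.14 to 18.6%) in replicate 4, but 3.56% (1.55 to 6.89%) in replicate 2 and 3.77% (1.04 to 9.38%) in replicate 3. In anti-KLH replicates 1, 2 and 3 it was 4.49% (1.24 to 11.1%), 0% (upper bound 5.28%) and 2.38% (0.0603 to 12.6%). The treated tumours with the higher share of Ly6c2, replicates 1 and 4, were thus not the same pair as those with the higher level of Ly6c1, replicates 2 and 4.

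Ly6e (74955051 to 74959905), by far the most abundant member, differed less. It stood at 449, 380, 391 and 469 CPM in anti-Lair1 replicates 1, 2, 3 and 4, and at 352, 279 and 394 CPM in anti-KLH replicates 1, 2 and 3. Anti-KLH replicate 3 was above anti-Lair1 replicates 2 and 3, so that the groups overlapped. Means were 422 ± 43.4 CPM with anti-Lair1 (SD, n = 4) and 342 ± 58.0 CPM with anti-KLH (SD, n = 3), and the log2 fold change was 0.31 ± 0.13 (SE). It was 0.18 without anti-KLH replicate 2, the lowest control, and 0.13 with the level of muscle genes as a covariate. With counts from 3732 to 8892 per library, counting error was small beside the differences between tumours.

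Ly6k (74796874 to 74799986) was low, with 26 to 43 counts in anti-Lair1 libraries and 18 to 33 in anti-KLH libraries. Its levels of 2.37, 2.86, 2.25 and 2.83 CPM in anti-Lair1 replicates 1, 2, 3 and 4 all lay above those of 1.31, 1.95 and 1.83 CPM in anti-KLH replicates 1, 2 and 3, but the 95% counting intervals of anti-Lair1 replicate 3 (1.47 to 3.29 CPM) and anti-KLH replicate 2 (1.27 to 2.85 CPM) overlapped. The log2 fold change was 0.62 ± 0.30 (SE). Tex101, the gene of the partner of Ly6k in male germ cells, had 0 counts in all libraries.

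Ly6d (74762056 to 74763620) showed no direction that held. It stood at 0.395, 1.86, 1.21 and 2.47 CPM in anti-Lair1 replicates 1, 2, 3 and 4, and at 1.15, 1.80 and 1.73 CPM in anti-KLH replicates 1, 2 and 3. The treated tumours thus spanned a wider range than the controls, on both sides of them. The log2 fold change was -0.05 ± 0.54 (SE), and its sign turned in 6 of the 15 alternative fits. The 14 genes of stratified epithelium, which carries Ly6d, summed to 18.2 to 29.7 CPM in anti-Lair1 tumours, against 159 CPM in anti-KLH replicate 3 and 28.8 to 39.8 CPM in the other anti-KLH tumours, and 1 of the 5 that were tested was above 0, with a median of -0.99. Ly6d in anti-KLH replicate 3 was 1.73 CPM, inside the range of the others. Of the 9 B cell genes with a row, Ms4a1 had 0 counts in all libraries and Cd79a, Cd79b and Pax5 had at most 3. The list nonetheless summed to 18.6 to 24.8 CPM with anti-Lair1 and 12.99 to 15.4 CPM with anti-KLH, without overlap, and its 3 tested genes were above 0 with a median of 1.15 and a lowest value of 0.39. Cd22 averaged 2.24 CPM with anti-Lair1 and 0.688 CPM with anti-KLH, and Blnk 1.22 and 0.578 CPM. Most of the sum thus came from other listed genes, and it is not a measure of B cells alone. Genes as low as Cd22 and Blnk can pass the filter on their counts in treated tumours alone and then tend to be above 0. The direction and median of the 3 tested genes are therefore partly set by the filter.

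Ly6i (74979534 to 74983430), the closest relative of Ly6a by coding sequence, was near the floor. It had 2, 0, 2 and 9 counts in anti-Lair1 replicates 1, 2, 3 and 4 and 5, 1 and 1 in anti-KLH replicates 1, 2 and 3, and was not tested. Except for anti-Lair1 replicate 4, at 0.654 CPM, and anti-KLH replicate 1, at 0.198 CPM, each library was at or below the level of 3 counts. Of the neutrophils that Ly6g would mark, the 14 listed genes summed to 17.7 to 119 CPM in anti-Lair1 tumours and 12.7 to 119 CPM in anti-KLH tumours, 2 of the 4 tested were above 0 with a median of -0.10, and the granule genes Camp, Ltf, Ngp, Elane and Mpo had at most 2 counts in any library.

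**Figure D3:**
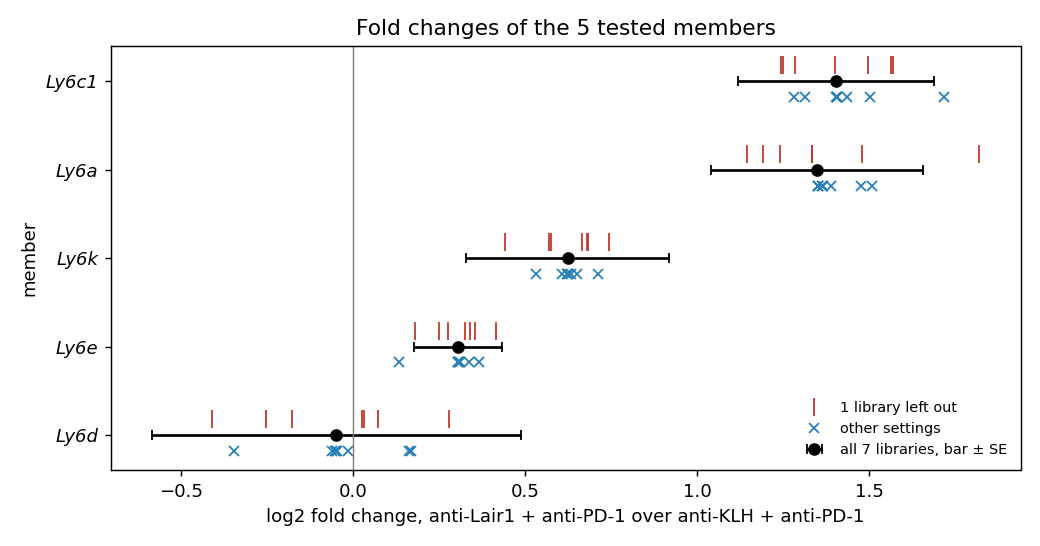
Log2 fold change of the 5 tested members, anti-Lair1 + anti-PD-1 over anti-KLH + anti-PD-1, with black points and bars for the fit of all 7 libraries ± SE, red ticks for fits without 1 library and blue crosses for other settings. Ly6c1 (1.40) and Ly6a (1.35) stay above 1 in every fit shown, Ly6k (0.62) and Ly6e (0.31) stay above 0, and Ly6d lies on both sides of 0.

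Ratios between members within a library do not depend on how libraries are scaled. For every 100 counts of Ly6e there were 13.6, 16.1, 10.6 and 15.2 counts of Ly6a in anti-Lair1 replicates 1, 2, 3 and 4, and 9.95, 6.30 and 3.96 in anti-KLH replicates 1, 2 and 3. The ratio was thus higher in all 4 treated tumours, with anti-Lair1 replicate 3 and anti-KLH replicate 1 close to each other. Against Ly6c1 no such gap was seen: there were 8.37, 4.24, 4.73 and 5.20 counts of Ly6a per count of Ly6c1 in anti-Lair1 replicates 1, 2, 3 and 4, and 10.4, 3.46 and 3.73 in anti-KLH replicates 1, 2 and 3, so that 1 tumour of each group stood apart from the rest of its group.

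**Figure D4:**
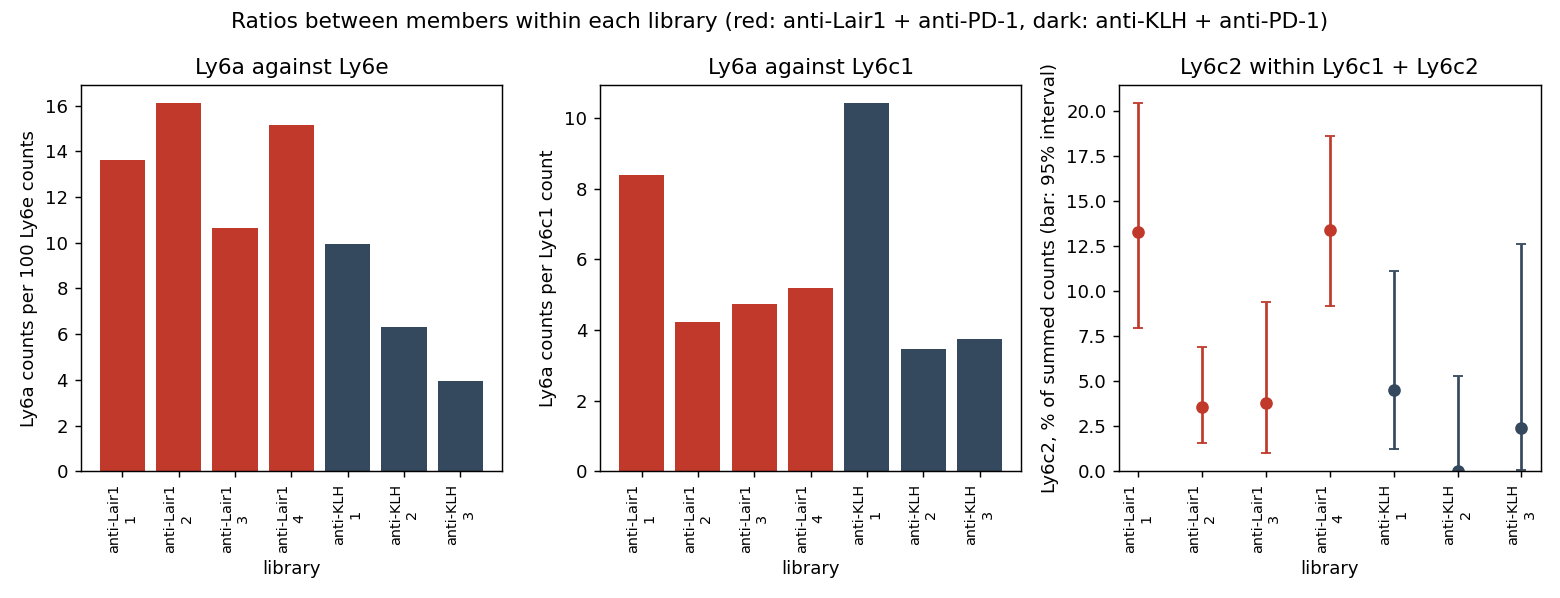
Ratios within each library, anti-Lair1 + anti-PD-1 in red and anti-KLH + anti-PD-1 in dark blue: Ly6a counts per 100 Ly6e counts, Ly6a counts per Ly6c1 count, and Ly6c2 as a percentage of the summed counts of Ly6c1 and Ly6c2 with its 95% Clopper-Pearson interval. The first ratio is 10.6 to 16.1 in anti-Lair1 tumours and 3.96 to 9.95 in anti-KLH tumours, the second overlaps between the groups, and the third is near 13% in anti-Lair1 replicates 1 and 4 only.

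Within the groups, Ly6a and Ly6c1 deviated in different libraries. Anti-KLH replicate 1 was 0.72 above its group's mean log2 CPM for Ly6a and 0.29 below it for Ly6c1, and anti-Lair1 replicate 1 was 0.09 above for Ly6a and 0.53 below for Ly6c1. In the mean of 32 interferon response genes, members left out, anti-KLH replicate 1 was 0.45 above its group and anti-Lair1 replicate 3 was 0.50 below its group. These were also the libraries in which Ly6a was highest among controls and lowest among treated tumours, at 0.72 above and 0.47 below. In anti-Lair1 replicate 1 the interferon mean was 0.53 above its group and Ly6a 0.09 above, and in anti-Lair1 replicate 2 the signs were opposite, with the interferon mean at -0.27 and Ly6a at 0.08. In the mean of 14 endothelial genes, replicates 1 and 3 were below and replicates 2 and 4 above their group with anti-Lair1, and replicate 1 was below and replicates 2 and 3 above with anti-KLH. The deviations of Ly6c1, Ly6d and Ly6k each had these signs in all 7 libraries, although those of the endothelial mean were small, from -0.207 to 0.168, and that of Ly6c1 in anti-KLH replicate 3 was 0.00749. The T cell and interferon means had the same signs as each other in every library. Ly6c2 and Ly6e shared these signs except in anti-KLH replicate 3. Both members were above their group in anti-Lair1 replicates 1 and 4 and anti-KLH replicate 1. They were below it in anti-Lair1 replicates 2 and 3 and anti-KLH replicate 2. The deviations of Ly6e were small, from -0.277 to 0.219. These are descriptions over 7 libraries, and Ly6c2 rests on few counts. The matches of signs were picked out among all members and lists after the values were seen. Whether a member's RNA came from the cells of a list was not tested.

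**Figure D5:**
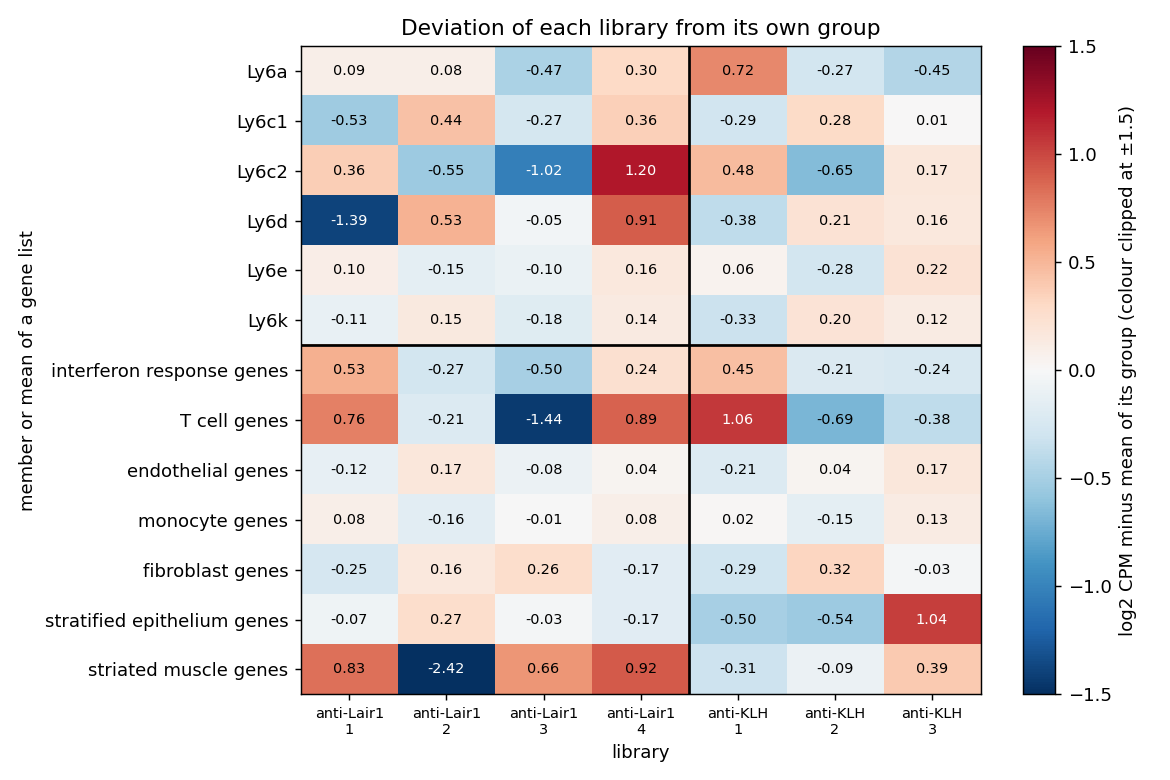
Log2 CPM of members, or mean log2 CPM of gene lists, in each library minus the mean of its own group, with anti-Lair1 + anti-PD-1 libraries left and anti-KLH + anti-PD-1 libraries right of the black line and colour clipped at ±1.5. Ly6a is high in anti-KLH replicate 1 (0.72) and low in anti-Lair1 replicate 3 (-0.47), as is the interferon list (0.45 and -0.50), and Ly6c1, Ly6d and Ly6k share the sign of the endothelial list in all 7 libraries. Ly6i and some of the lists are not drawn, and these matches were picked out after the values were seen.

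Interferon response genes, among which Ly6a and Ly6e are usually counted, were higher by value with anti-Lair1 as well. A positive fold change was seen for 32 of the 32 listed, beside 49.1% of all tested genes. Their median was 1.06 on the log2 scale, with a range of 0.37 to 1.96. The quasi-likelihood test of edgeR called 0 of them, beside 0% of all tested genes, and DESeq2 called 8, beside 0.39%. For 16 the groups did not overlap, all higher with anti-Lair1, beside 3.06% of all tested genes. An unadjusted p under 0.05 in the test of edgeR was found for 25, beside 5.15% of all tested genes. The summed level of the list was 1346 to 3045 CPM in anti-Lair1 tumours and 763 to 1593 CPM in anti-KLH tumours. The fold change of Ly6a (1.35) lay inside the range of the list and that of Ly6e (0.31) below its lowest member. Mx1, an antiviral GTPase, averaged 6.95 ± 2.53 CPM with anti-Lair1 (SD, n = 4) and 1.78 ± 0.0775 CPM with anti-KLH (SD, n = 3), and Ifi44, another interferon-induced gene, 13.9 ± 5.44 and 4.43 ± 0.932 CPM in the same groups.

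Genes of cell types that carry Ly6 proteins are given beside these values, and their part in the members' differences was not tested. Of 14 endothelial genes 12 had a positive fold change, with a median of 0.37, and their summed level was 206 to 241 CPM in anti-Lair1 tumours and 160 to 197 CPM in anti-KLH tumours. Plvap, a protein of fenestrated endothelium, averaged 16.8 ± 1.79 CPM with anti-Lair1 (SD, n = 4) and 11.4 ± 2.87 CPM with anti-KLH (SD, n = 3). Of 10 T cell genes with a row all 7 that were tested were above 0, with a median of 1.40, and the summed level was 8.38 to 39.4 CPM with anti-Lair1 and 4.64 to 15.8 CPM with anti-KLH. A low gene can pass the filter on its counts in treated tumours alone, and such a gene tends to be above 0. Cd4, with 1.33 CPM with anti-Lair1 and 0.203 CPM with anti-KLH, was this low, so the count and median are partly set by the filter. For monocytes, the cells sorted by Ly6C, the list of 16 genes showed no common direction: 8 of the 14 tested were above 0, the median was 0.11, and the summed level was 596 to 689 CPM with anti-Lair1 and 682 to 714 CPM with anti-KLH. Csf1r, which macrophages need to survive, averaged 64.3 ± 8.20 and 42.5 ± 3.75 CPM in these groups, and Ace, a peptidase found on patrolling monocytes and on endothelium, 128 ± 31.1 and 222 ± 13.1 CPM. Ace is part of the summed level and was lower with anti-Lair1, so the sum does not show the direction of the other monocyte genes. Fibroblast genes had a median of 0.26 with 11 of 13 tested above 0, and summed to 1469 to 2410 CPM with anti-Lair1 and 2022 to 2247 CPM with anti-KLH. Of 7 plasmacytoid dendritic cell genes 2 were tested, with a median of -0.03. The quasi-likelihood test of edgeR called 0 genes of these lists, beside 0% of all tested genes. Its unadjusted p was under 0.05 for 4 of 14 endothelial and 3 of 7 T cell genes tested. For monocyte and fibroblast genes this held for 3 of 14 and 0 of 13, beside 5.15% of all tested genes. DESeq2 called 2 monocyte genes, Csf1r and Ace, and 0 of the other lists named here, beside 0.39% of all genes.

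Striated muscle RNA was higher in 3 of the 4 treated tumours. The 12 muscle genes summed to 127, 15.8, 91.0 and 124 CPM in anti-Lair1 replicates 1, 2, 3 and 4, and to 11.3 to 15.4 CPM in anti-KLH tumours. In anti-Lair1 replicate 2, whose muscle level was about that of the controls, Ly6a stood at 61.1 CPM and Ly6c1 at 14.4 CPM, both above every control. This is 1 library, and the part of muscle RNA in the members' differences was not tested. With the muscle level as a covariate the log2 fold changes were 1.48 ± 0.44 for Ly6a, 1.72 ± 0.35 for Ly6c1, 0.71 ± 0.43 for Ly6k, 0.17 ± 0.77 for Ly6d and 0.13 ± 0.175 for Ly6e (SE). Each SE was wider than in the fit without the covariate. Muscle level was high in treated tumours only, so this fit cannot fully tell muscle and treatment apart.

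Other genes of the Ly6 and uPAR superfamily showed no common direction. Of 33 listed, 28 had a row, 7 had 0 counts in all libraries, and 7 passed the filter. None of these 7 was called by edgeR's quasi-likelihood test or by DESeq2, 0 had an unadjusted p under 0.05, and 0 separated the groups. Their log2 fold changes ran from -0.66 to 0.52 with a median of 0.07, and 4 were above 0. Psca, a neighbour on chromosome 15 that encodes prostate stem cell antigen, averaged 65.0 ± 14.8 CPM with anti-Lair1 (SD, n = 4) and 51.5 ± 12.2 CPM with anti-KLH (SD, n = 3). Lypd1, a modulator of neuronal acetylcholine receptors, averaged 0.720 ± 0.248 and 1.15 ± 0.259 CPM in the same groups.

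The genes whose profile over the 7 libraries was most like that of a member were sought among 12317 other genes whose average log2 CPM was 1 or more, by the root mean square difference of log2 CPM after centring each gene on its own mean. That mean was taken over all 7 libraries, so the difference between the groups is part of each profile. Genes near a member therefore tend to share its fold change, and their nearness is not separate evidence on it. The log2 fold changes of the 3 genes nearest Ly6a were 1.23, 1.22 and 1.39, beside 1.35 for Ly6a. For Ly6a, which itself varied by 0.81, the 3 nearest were Apol9b, an apolipoprotein L gene, with a difference of 0.10, Cyp4b1, a cytochrome P450 gene, with 0.21, and Ifit1, an interferon-induced RNA-binding protein, with 0.22. Apol9b averaged 4.13 ± 0.836 CPM with anti-Lair1 (SD, n = 4) and 1.69 ± 0.745 CPM with anti-KLH (SD, n = 3). For Ly6c1, which varied by 0.74, they were Abcg3, a membrane transporter gene, with 0.21, Fam49a with 0.25 and Tnxb, which encodes the matrix protein tenascin X, with 0.27. For Ly6e, which varied by 0.23, they were Trim47, Rftn1 and Mpi with 0.07 each. For Ly6k, which varied by 0.34, they were the endothelial and melanoma adhesion gene Mcam with 0.09, the membrane metalloproteinase gene Mmp15 with 0.11 and Cdh5, the cadherin of endothelial junctions, with 0.13. No gene was among the 3 nearest of more than 1 member.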

How the data were processed

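Polyadenylated RNA of 7 tumours was sequenced as single reads, per the labels' protocols. The authors deposited raw read counts per gene symbol. They name mm10 as the build and list STAR 2.7.6, featureCounts 2.0.1, Trim Galore and edgeR 3.40.1, per the submitters' processing notes. Annotation, strand setting and handling of multiple matches: not given in the sources used here. From these counts, edgeR 4.0.16 under R 4.3.3 was run with filterByExpr with a minimum count of 10, TMM scaling, and the robust quasi-likelihood fit of anti-Lair1 + anti-PD-1 (4) minus anti-KLH + anti-PD-1 (3) without covariates, adjusted by Benjamini-Hochberg over 13545 genes at 0.05. The common biological coefficient of variation was 0.182. Each SE is the log2 fold change divided by the root of its quasi-likelihood F. Log2 CPM used a prior count of 2. DESeq2 1.42.0, limma-voom 3.58.1, other scalings, filters, thinning, a muscle covariate and leaving out each library were alternatives. The limma-voom fit also gave each library a quality weight, so its values differ from edgeR's in that respect too. The fits were tested on simulated data with the same dispersion for all genes and changes placed only in genes with many counts. That test does not show how the fits act on the members with few counts. Alignments used Biopython 1.88 and GENCODE annotation, and figures matplotlib 3.10.9.

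Members and gene lists were chosen with earlier results of these data known. All members were named, with up to 2 genes of smallest p per list and the 3 genes nearest each member by profile; genes named for 0 or few counts, Tex101 among them, (and Plaur) were chosen after their values were seen. Replicate numbers are in accession order and pair no samples. The full genotype of the tumour models is not reported here.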

Additional observations from a re-analysis of the deposited data

How the results depend on the processing

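By edgeR 0 genes were called with all libraries; DESeq2 called 54 genes, 2 of them members, Ly6a and Ly6c1, and leaving out single libraries gave 0 to 3 genes (3 without anti-Lair1 replicate 2) and 0 members. Of the 5 tested members, 4 or 5 were above 0 in all 15 alternatives. The log2 ratio of the summed member levels, 0.42 with all libraries, lay between 0.295 and 0.51 without single libraries. Over all alternatives the log2 fold change lay between 1.145 and 1.82 for Ly6a, 1.24 and 1.72 for Ly6c1, 0.13 and 0.42 for Ly6e, and 0.44 and 0.74 for Ly6k. Ly6d lay between -0.41 and 0.28 and turned its sign, to 0.17 with the muscle covariate, 0.16 after thinning, 0.07 and 0.03 without anti-KLH replicates 2 and 3, and 0.28 and 0.03 without anti-Lair1 replicates 1 and 3; the cause was not tested. Without a filter on low counts the log2 fold change was 3.31 ± 0.94 (SE) for Ly6c2 and 0.79 ± 1.15 (SE) for Ly6i, and both genes are limited by depth. Other fits that held Ly6c2 gave 2.82 to 4.29, with SEs of 0.98 to 1.41. Apart from DESeq2, these fits each left out an anti-KLH library, and Ly6c2 passed their filter on counts in treated tumours alone. This range is therefore no test of how stable the value is. No paired analysis was possible because the labels give mouse names and no shared replicate numbers.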

Other observations

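Some relatives of the family had counts in 1 library only. Ly6g6c had 8 counts, Lypd3 had 7 and Lypd5 had 7 in anti-KLH replicate 3, and each had 0 counts in the other 6 libraries. The same library held the highest summed level of stratified epithelium genes, 159 CPM, against 18.2 to 39.8 CPM in the others. Slurp1, a relative secreted by keratinocytes, had 5, 5, 1 and 9 counts in anti-Lair1 replicates 1, 2, 3 and 4, and 7, 2 and 1 counts in anti-KLH replicates 1, 2 and 3. The first 3 genes were picked with their values known, and the cause was not tested.

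Plaur, which encodes the urokinase receptor, drew the most counts among relatives outside the members, with 194 ± 28.1 CPM with anti-Lair1 (SD, n = 4) and 205 ± 11.4 CPM with anti-KLH (SD, n = 3), and its log2 fold change was -0.08 ± 0.11 (SE).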
